A study of Homo sapiens with 6 samples.

Results

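Superoxide dismutases and catalase form the enzyme chain that removes superoxide, here examined in AC16 cells exposed to fine airborne particulate matter (PM2.5). The genes were SOD1, SOD2, SOD3, CAT and CCS, the copper chaperone of SOD1. They were listed by name, and each was represented by its transcript cluster annotated with exactly 1 gene symbol, taking the highest mean over the 6 arrays where there were several. Of the 5 listed genes, 4 had such a cluster, among 22465 genes in all. Both clusters annotated with SOD2 also carried the symbol of SOD2-OT1, an overlapping non-coding RNA, so no value is given for SOD2 and its level was not analysed here.

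RNA was measured on 6 Affymetrix arrays of AC16, an established human myocardial line made by fusing cells of adult heart ventricle with SV40-transformed fibroblasts. The PM2.5 group comprised 3 arrays of cells exposed to 50 µg/mL for 24 h, and the control group comprised 3 arrays labelled only as control. The titles call the arrays biological replicates. Separate cultures are not stated, so a p-value here reflects only how far these 6 samples spread, which may be technical in part. Values are log2 expression after RMA, which corrects background, equalises the arrays and summarises probes.

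Superoxide, which leaks from mitochondria and is made by NADPH oxidases, is converted to hydrogen peroxide by 3 dismutases. SOD1 is the copper and zinc enzyme of the cytosol, SOD2 the manganese enzyme of the mitochondrial matrix, and SOD3 the secreted copper and zinc enzyme of the extracellular space, abundant in vessel walls. CCS hands copper to SOD1 and helps form its disulphide bond. CAT, the haem enzyme catalase of peroxisomes, splits hydrogen peroxide into water and oxygen, a task it shares with glutathione peroxidases and peroxiredoxins. Airborne particles carry metals and organic compounds that generate reactive oxygen species in cells, which is why these enzymes are often examined after exposure.

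The upstream sequences of the 3 measured genes found in the RefSeq promoter table are shown because these genes differed in whether they were detected and in how they varied over the arrays. Each is the 250 bases before the gene's start (RefSeq, GRCh38.p14, plus strand, 5′ to 3′). Capitals mark CCAAT or its complement ATTGG, the GC box GGGCGG or CCGCCC, and TGACNNNGC or GCNNNGTCA, the core of the antioxidant response element.
CAT, chr11:34438684-34438933: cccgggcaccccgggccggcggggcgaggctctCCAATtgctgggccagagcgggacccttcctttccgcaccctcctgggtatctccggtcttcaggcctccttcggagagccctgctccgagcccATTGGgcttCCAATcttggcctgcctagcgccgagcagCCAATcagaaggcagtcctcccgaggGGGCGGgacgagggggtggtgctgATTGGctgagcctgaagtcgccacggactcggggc
CCS, chr11:66592935-66593184: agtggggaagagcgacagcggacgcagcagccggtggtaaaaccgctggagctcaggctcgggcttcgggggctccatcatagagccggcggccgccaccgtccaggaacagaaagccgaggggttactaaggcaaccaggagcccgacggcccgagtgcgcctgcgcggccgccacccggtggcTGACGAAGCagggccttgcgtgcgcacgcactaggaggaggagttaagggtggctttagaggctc
SOD3, chr4:24795323-24795572: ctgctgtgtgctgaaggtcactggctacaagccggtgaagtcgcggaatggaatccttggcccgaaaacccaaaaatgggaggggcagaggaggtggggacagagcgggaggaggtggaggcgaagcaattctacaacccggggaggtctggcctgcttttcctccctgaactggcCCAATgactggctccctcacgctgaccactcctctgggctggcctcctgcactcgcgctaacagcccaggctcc
The CAT window held 5 CCAAT motifs and 1 GC box and no element core. At least 5 CCAAT motifs occurred in 0.319% of 35116 promoter windows of the same length, and at least 1 in 32.0%. The CCS window held 1 element core, TGACGAAGC, which with its complement pattern occurs in 10.9% of windows, and neither of the other motifs. The SOD3 window held 1 CCAAT motif only, and its GC content of 61.6% was below the 68.8% of CAT and the 67.2% of CCS. A GC box occurred in 42.6% of all windows. No motifs overlapped in these 3 windows. A match describes the letters and was not tested as a binding site.

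The arrays fell into 2 sets by the signal of 8 spike-in control probe sets (hybridisation and poly-A controls), averaged per array. A high spike-in set (10.7 to 10.9) held 1 PM2.5 array, replicate 1, with control replicates 1 and 2. A low set (10.2 to 10.3) held the other two PM2.5 arrays with control replicate 3. The labels do not say what separates the sets. A gene is called above background when it exceeded 5.66 on at least 3 arrays. This is the highest reading of 23 background probe sets, from control replicate 1, and on the other arrays the highest was 4.68 to 5.14. Genes that do not meet this rule are called within background, even if they exceed an array's own highest background reading. The limit of 5.66 is strict, and a reading below it does not show that a gene is not transcribed. Above it lay 1 of 15 measured cardiomyocyte markers (MYL2, a ventricular myosin light chain), 4 of 10 fibroblast, 0 of 8 endothelial and 1 of 8 leukocyte markers. The 14 other cardiomyocyte markers, among them the troponins TNNI3 and TNNC1 and the transcription factors NKX2-5 and GATA4, lay within background.

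After PM2.5 the mean level was higher than in controls for each of the 4 measured genes, but every difference was within the spread between arrays. It was likewise higher for 9683 of all 22465 genes and for 2280 of the 4150 above background. SOD3 lay within background. The SOD1 and CAT differences became -0.03 each in the fit that accounted for the spike-in sets. The shared direction is therefore not read as a joint rise. No gene of the 4 passed limma's test across 22465 genes (adjusted p = 1 for each). In that comparison 0 genes passed in all (0% called), with 473 at an unadjusted p under 0.05 (2.11%). The PM2.5 and control arrays overlapped for all 4 genes. A complete separation of the groups was seen for 5.31% of all genes and for 3.28% of the 4150 above background. In RNA of whole cultures, fewer cells of a type and less RNA per cell cannot be told apart.

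SOD1, the cytosolic dismutase, was well above background on all 6 arrays. It read 10.7, 11.9 and 11.2 on PM2.5 replicates 1, 2 and 3, and 10.5, 10.4 and 11.8 on control replicates 1, 2 and 3. The PM2.5 replicates thus spanned almost the whole range of the controls, and control replicate 3 was close to the highest PM2.5 array. The mean was 11.3 ± 0.592 (SD, n = 3) with PM2.5 and 10.9 ± 0.796 (n = 3) without it, a log2 difference of 0.35 (SE 0.49) or 1.27-fold. The 95% interval ran from 0.556-fold to 2.91-fold, so these arrays bound the change only loosely. Within the high spike-in set the difference was 0.22 and within the low set -0.28, each from 1 array of one group against 2 of the other. The log2 difference was -0.03 when the array set entered as a block (95% interval -0.58 to 0.52, limma adjusted p = 1). The direction therefore differed between these fits.

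CCS, the chaperone that loads copper into SOD1, was the steadiest of the genes above background here. It read 5.84, 5.80 and 5.78 on PM2.5 replicates 1, 2 and 3, and 5.82, 5.61 and 5.67 on control replicates 1, 2 and 3. Control replicates 2 and 3 lay below all PM2.5 arrays, but control replicate 1 lay among them. The means were 5.80 ± 0.0324 (n = 3) and 5.70 ± 0.111 (n = 3), a log2 difference of 0.11 (SE 0.09) or 1.08-fold. The 95% interval ran from 0.931-fold to 1.24-fold. The difference was nearly the same within the high set (0.13) and the low set (0.12), and 0.12 with the set as a block (limma adjusted p = 0.897). CCS exceeded 5.66 on 5 of 6 arrays and the array's own highest background probe set on 6 of 6, so its signal lay close to the limit. Values near background understate a change.

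CAT, the peroxisomal catalase, varied most between arrays. It read 5.49, 7.02 and 6.17 on PM2.5 replicates 1, 2 and 3, and 5.49, 5.40 and 6.70 on control replicates 1, 2 and 3. It exceeded 5.66 on 3 arrays, which were those with low spike-in signal. It exceeded the array's own highest background probe set on 5 of 6 arrays, all but control replicate 1. PM2.5 replicate 1 and control replicate 1, both of the high set, had the same level to within the digits printed. The means were 6.23 ± 0.770 (n = 3) and 5.86 ± 0.724 (n = 3), a log2 difference of 0.36 (SE 0.50) or 1.29-fold, with a 95% interval of 0.551-fold to 3.005-fold. Within the high set the difference was 0.04 and within the low set -0.10. With the array set as a block it was -0.03 (95% interval -0.64 to 0.58, limma adjusted p = 1). Without PM2.5 replicate 2 it was also -0.03.

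SOD3, the secreted dismutase, was not detected above background on any array. It read 3.52, 3.40 and 3.53 on PM2.5 replicates 1, 2 and 3, and 3.37, 3.51 and 3.44 on control replicates 1, 2 and 3. All 6 values lay below the median of the background probe sets, 3.86 to 3.92, and the groups overlapped. The means were 3.48 ± 0.0691 (n = 3) and 3.44 ± 0.0727 (n = 3). At this level the arrays carry no measure of a change in SOD3 RNA.

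**Figure D1:**
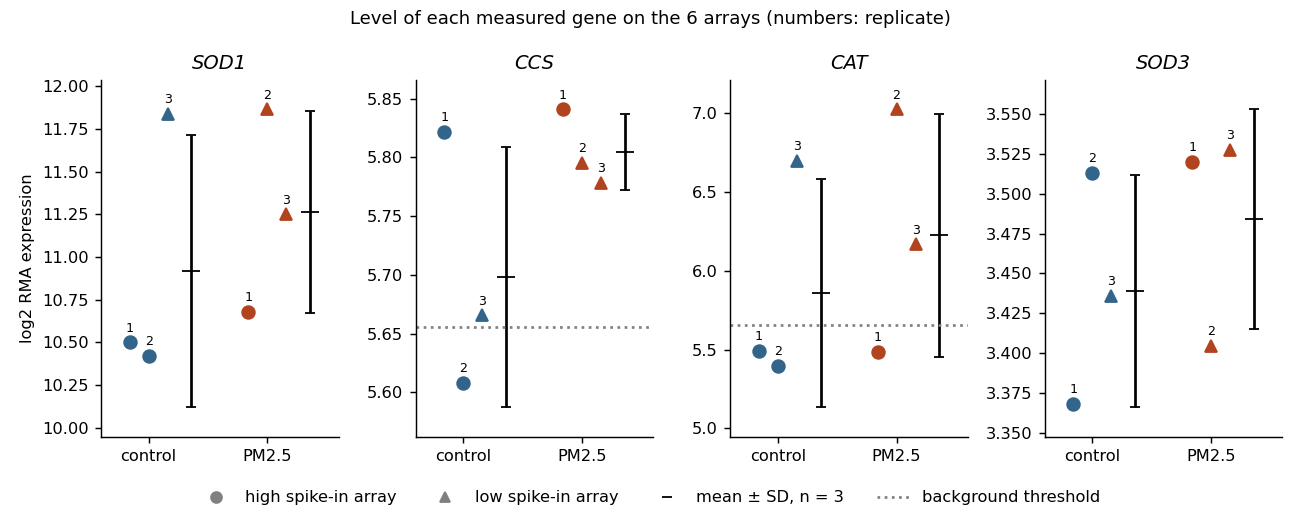
Log2 RMA expression (y axis, scaled separately per gene) of SOD1, CCS, CAT and SOD3 on the 3 control and 3 PM2.5 arrays, with replicate numbers, the group mean and SD. Triangles mark the low spike-in arrays, which hold the 3 highest values of SOD1 and of CAT in both groups, and the dotted line is the background threshold of 5.66.

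**Figure D2:**
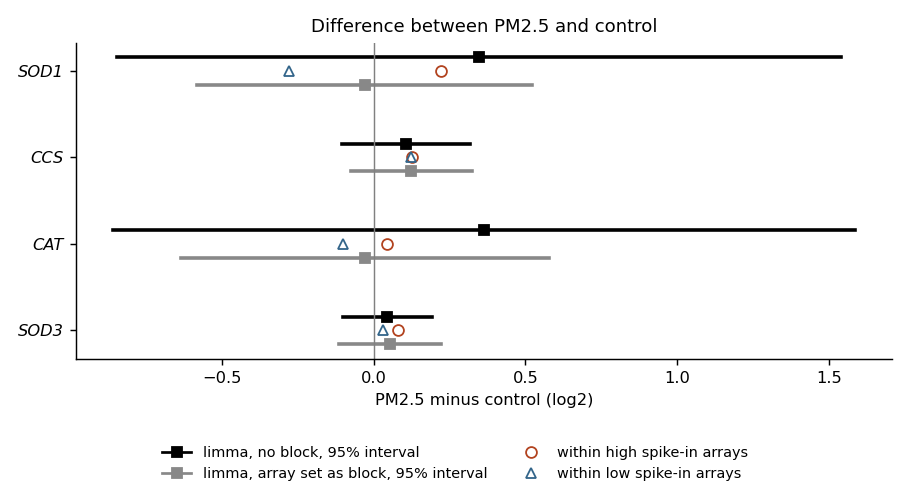
PM2.5 minus control on the log2 scale (x axis) for each gene, as limma's estimate with its 95% interval without a block (black), with a block for the array set (grey), and within each array set (open symbols, no error). Every interval includes 0, and the estimates of SOD1 and CAT move from 0.35 and 0.36 to -0.03 each with the block.

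SOD1 and CAT, the cytosolic dismutase and catalase, were higher on the arrays with low spike-in signal in both groups. SOD1 read 11.65 ± 0.348 (n = 3) on the low spike-in arrays and 10.5 ± 0.134 (n = 3) on the high ones. The log2 difference, adjusted for group, was 1.13 (SE 0.22) or 2.18-fold, with a 95% interval of 1.49-fold to 3.20-fold (limma adjusted p = 0.0451). CAT read 6.63 ± 0.432 (n = 3) against 5.46 ± 0.0533 (n = 3), a log2 difference of 1.18 (SE 0.24) or 2.27-fold, with a 95% interval of 1.49-fold to 3.45-fold (limma adjusted p = 0.0488). CAT exceeded 5.66 on the low spike-in arrays alone, so it counts as above background only through the arrays where it was high. Its level on the high spike-in arrays was not above that limit, and its fold is not an exact measure of the difference in RNA. The sets did not overlap for either gene. The difference was present in both groups, at 0.88 among PM2.5 and 1.38 among control arrays for SOD1, and at 1.11 and 1.25 for CAT.

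Of the 4150 genes above background 20.4% were called higher in the low set and 6.70% lower, and over all 22465 genes 5.40% and 2.65% were. These 1810 calls over all genes fell to 4, 26 and 827 without PM2.5 replicates 1, 2 and 3, and to 74, 496 and 1 without control replicates 1, 2 and 3. The sets did not overlap, higher in the low set, for 45.3% of the genes above background, and in either direction for 64.0%. Over all genes, 16.3% were separated in that way with the low set higher. A difference at least as high as that of SOD1 was seen in 261 of the 4150 genes above background (6.29%), while their median was 0.17. Each set holds 3 arrays, so a gene can be above background through 1 set alone. The shares and the median over the 4150 genes therefore partly reflect that rule, and by how much was not tested. CAT is not ranked among the 4150 genes, because of its level on the high spike-in arrays. The calls of both genes lay near the threshold. SOD1 passed without PM2.5 replicate 3 (limma adjusted p = 0.0423) but was lost without each of the other 5 arrays (adjusted p = 0.0891 to 0.329), with a log2 difference of 0.88 to 1.38 throughout. CAT likewise passed without PM2.5 replicate 3 only (limma adjusted p = 0.0423, otherwise 0.0959 to 0.332), at 1.01 to 1.37.

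CCS and SOD3 did not pass between the sets. CCS read 5.75 ± 0.0704 (n = 3) on the low and 5.76 ± 0.129 (n = 3) on the high arrays, a log2 difference of -0.05 (95% interval -0.25 to 0.15, limma adjusted p = 0.675). SOD3 differed by -0.03 (95% interval -0.20 to 0.14, adjusted p = 0.782 in limma). The interval of CCS lay wholly below those of SOD1 (0.58 to 1.68) and CAT (0.57 to 1.79), though the difference between genes was not itself tested. The distance measure described next was 0.607 between SOD1 and CCS and 0.113 between SOD1 and CAT. Neither distance is read as a result about the enzymes. CAT is above background only through the low spike-in arrays, and CCS lay close to the limit, where a difference is understated.

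**Figure D3:**
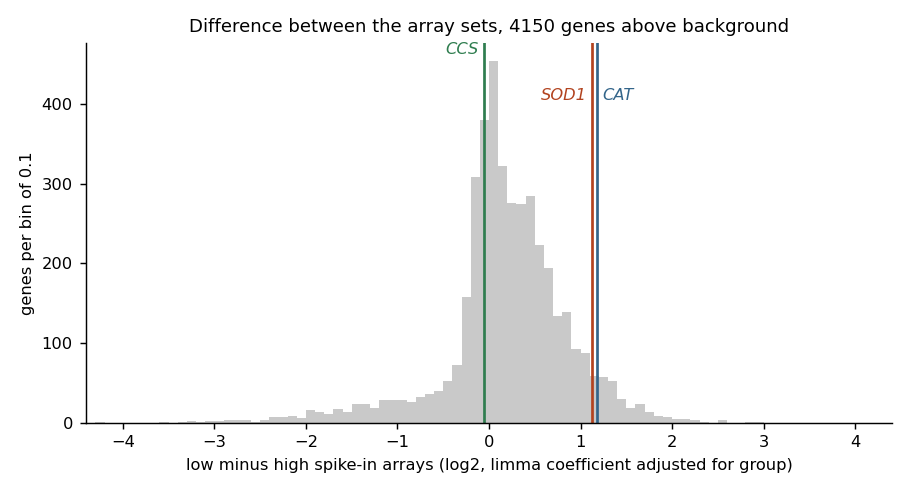
Number of genes (y axis) by log2 difference between low and high spike-in arrays (x axis) for the 4150 genes above background, with SOD1, CAT and CCS as vertical lines. SOD1 (1.13) and CAT (1.18, not above the background limit on the high arrays) lie above 1 and CCS (-0.05) lies below the median of 0.17. A gene can be above background through 1 set alone.

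The likeness of profiles was measured as the root mean square difference of log2 values over the 6 arrays, each gene centred on its own mean, among the 4150 genes above background. The gene nearest to CAT of all was SOD1, at 0.113, where the median distance of CAT to the other genes was 0.575. It was followed by YWHAB, a 14-3-3 adaptor protein (0.127), and RAB14, a GTPase of membrane traffic (0.146). CAT is among the 4150 genes only through the low spike-in arrays, where it was high. Its nearest genes are therefore not read as a likeness of the enzymes. Nearest to SOD1 were SUPT4H1, a transcription elongation factor subunit (0.0874), ADH5, the alcohol dehydrogenase that also handles formaldehyde and nitrosoglutathione (0.0950), and ICMT, which methylates prenylated proteins (0.0955), against a median of 0.530. Between the sets these 5 further genes differed by 1.04 to 1.25, with the low spike-in set higher. They were picked for nearness over the same 6 arrays, so this follows from the choice and is no separate result. Of these, ADH5, like CAT, is among the 4150 genes only through the low spike-in arrays. It read 5.45 to 5.55 on the high spike-in arrays, which is not above the background limit. Its nearness to SOD1 is therefore not read as a likeness, and its difference of 1.15 is not an exact measure. Nearest to CCS were FADS2, a fatty acid desaturase (0.0253), CRAT, carnitine acetyltransferase (0.0338), and LZTR1, an adaptor of a ubiquitin ligase (0.0343). These are flat profiles, with a range over the arrays of 0.164 to 0.280, as CCS had one of 0.233. Their flatness too follows from the choice.

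Among direct partners of the enzymes, SLC31A1, the main copper importer, which supplies copper for CCS and SOD1, read 8.14, 10.1 and 9.65 on PM2.5 replicates 1, 2 and 3, and 8.08, 8.25 and 10.2 on control replicates 1, 2 and 3. Its 3 high values were the low spike-in arrays, and its difference between the sets was 1.89 (SE 0.17, limma adjusted p = 0.0209). For treatment it differed by 0.44 on the log2 scale (limma adjusted p = 1), -0.02 within the high and -0.35 within the low set. ATOX1, the copper chaperone of the secretory pathway that serves SOD3, lay within background (4.34 ± 0.0265 after PM2.5 and 4.36 ± 0.0699 in controls, n = 3 each). PEX5, the receptor that imports CAT into peroxisomes, also lay within background, at 5.04 ± 0.0203 and 5.04 ± 0.0280. SIRT3, which deacetylates and activates SOD2, read 5.33 ± 0.0291 against 5.23 ± 0.0554, within background. Its groups did not overlap, but the nearest pair was 5.293 on PM2.5 replicate 2 and 5.289 on control replicate 3. Groups were separate for 5.31% of all genes.

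GPX1, the selenium peroxidase that reduces hydrogen peroxide in cytosol and mitochondria, was a further partner with separate groups (3.28% of genes above background). It read 10.1, 9.93 and 9.71 on PM2.5 replicates 1, 2 and 3, and 9.23, 9.44 and 9.33 on control replicates 1, 2 and 3, all controls lying below all PM2.5 arrays. The log2 difference of 0.59 (SE 0.19) did not pass (limma adjusted p = 1). It was 0.79 within the high and 0.49 within the low set, and its difference between the sets, at -0.16, did not pass (limma adjusted p = 0.489). NOX4, a superoxide-producing oxidase, read 3.97 ± 0.0390 against 3.93 ± 0.0589, below the highest background probe set of every array. CYBA, the subunit it binds, read 5.66 ± 0.179 against 5.72 ± 0.163. The groups overlapped for both. NFE2L2, the transcription factor NRF2 that acts at the antioxidant response element, read 5.06 ± 0.0394 against 5.03 ± 0.0117, within background. It exceeded the array's own highest background probe set on 3 of 6 arrays.

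Over 6 lists of genes that act with these enzymes, 114 were measured and 35 lay above background. Of the 114, 0 passed limma's test for treatment, with or without the array set as a block (0% of all genes called in both fits). After PM2.5, 54 of the 114 were higher, as were 9683 of all 22465 genes. The median log2 change of the 114 was -0.0037, against -0.0099 over all genes. The groups did not overlap, higher after PM2.5, for 4 of them (GPX1, GPX4, PEX11A and SIRT3) and, lower, for 2 (NOXO1 and COX19). These 6 of 114 are a share close to the 5.31% of all genes with separate groups. Of these 6 genes, GPX1 and GPX4 were above background. GPX4, which reduces lipid peroxides, read 15.9 on all 3 PM2.5 arrays, an exact repeat of 1 value. The cause of the repeat was not tested, and the difference of GPX4 may not be exact. PEX11A, NOXO1 and COX19 were chosen after their values were seen.

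By role, the lists held 12, 4, 4, 4, 7 and 4 genes above background, in the order given here. Most of their medians therefore rest largely on dim readings. The median change was 0.04 over 20 other genes of hydrogen peroxide removal and -0.01 over 24 sources of superoxide and hydrogen peroxide. It was -0.01 over 18 genes of copper and manganese supply and -0.0082 over 19 peroxisome genes. It was 0.01 over 19 transcription factors and deacetylases and -0.04 over 14 NF-kB feedback and target genes, a pathway that induces SOD2. Among the last, CCL2, a monocyte chemokine, read 5.77 ± 0.0269 against 6.15 ± 0.344 and NFKBIA, the inhibitor of NF-kB, 10.5 ± 0.0681 against 10.8 ± 0.554, both with overlap. RAC1, a GTPase of the oxidase complex, read 7.93 ± 0.163 against 7.84 ± 0.0829, with 1 value repeated exactly on 3 arrays. SLC25A39, a mitochondrial carrier for glutathione, read 13.2 ± 0.0429 against 13.1 ± 0.223. The peroxisomal genes PEX16 and PXMP4 differed by -0.07 and -0.0081 on the log2 scale, HIF1A, the hypoxia factor, by -0.24 and SP1, which binds GC boxes, by 0.10.

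**Figure D4:**
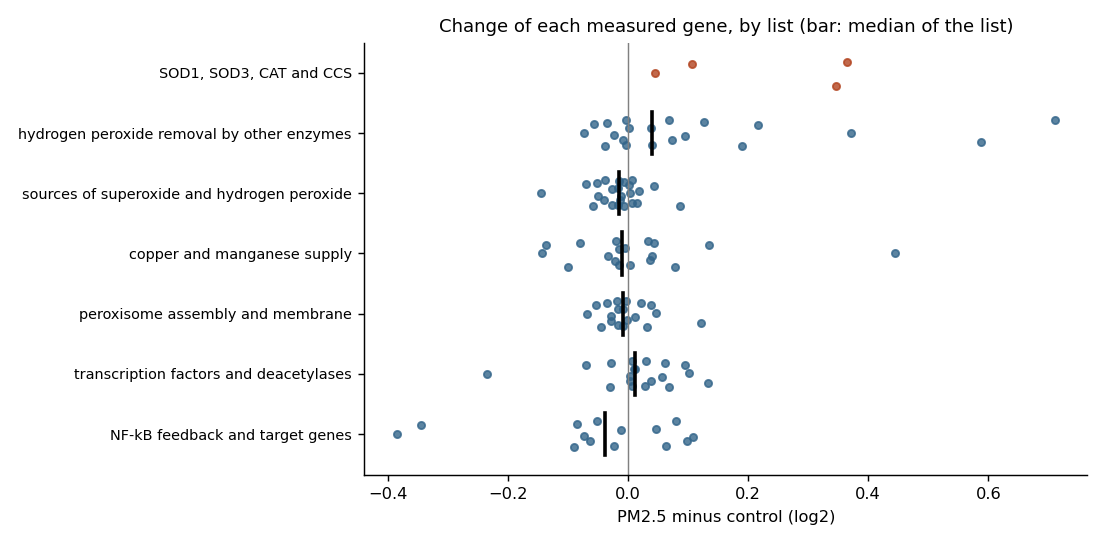
PM2.5 minus control on the log2 scale (x axis) for SOD1, SOD3, CAT and CCS (top row) and for each measured gene of 6 lists, 1 point per gene, with the median of each list as a bar. The medians of the lists lie between -0.04 and 0.04, and no gene passed the test. Of the 114 listed genes shown, 35 lay above background.

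Between the array sets, 11 of the 114 genes were called higher and 1 lower in the low spike-in set (limma, adjusted p under 0.05), where 5.40% and 2.65% of all genes were. Among the 35 genes above background, a rule that 1 set alone can meet, 7 were called higher, where 20.4% of all genes above background were. In hydrogen peroxide removal these were GSR, glutathione reductase (log2 difference 1.99), PRDX3, the mitochondrial peroxiredoxin (1.35), TXNRD1, the cytosolic thioredoxin reductase (1.06), and GPX8, which lay within background (0.93). In metal supply they were SLC31A1, the zinc and manganese importer SLC39A14 (0.51), SLC11A2, a metal transporter (0.31), and TMEM165 (0.27), the last pair within background. In the peroxisome they were LONP2, a protease (0.75), and SLC25A17, a carrier within background (0.37), and among regulators EPAS1, a hypoxia factor (1.00). The gene called lower was CYBB, the phagocyte oxidase subunit, within background (-0.21). Apart from SLC31A1 these genes were chosen after their values were seen. Of the markers, 1 of 10 fibroblast genes was called higher in the low set, COL1A1, a collagen (1.20, limma adjusted p = 0.0488), and 1 of 15 cardiomyocyte genes lower, TNNC1, a troponin within background (-0.20, limma adjusted p = 0.0348). None of the 8 endothelial and 8 leukocyte markers was called, CD68 among them (1.16, limma adjusted p = 0.108). Among fibroblast markers COL1A2, also a collagen, differed by 1.20 without being called (limma adjusted p = 0.0727). PDGFRB differed by 0.67, PDGFRA and VIM by 0.02 and 0.01, and the remaining fibroblast markers by -0.20 to -0.11. The median difference was -0.05 over the fibroblast, -0.05 over the cardiomyocyte, -0.07 over the endothelial and -0.06 over the leukocyte markers, and -0.04 over all genes. In these lists 4, 1, 0 and 1 markers lay above background, so the medians rest mostly on dim readings. The mean log2 level of the fibroblast markers was 5.60 to 5.81 on PM2.5 and 5.46 to 5.84 on control arrays, of the leukocyte markers 4.68 to 4.74 and 4.58 to 4.71, of the cardiomyocyte markers 4.31 to 4.37 and 4.34 to 4.35, and of the endothelial markers 4.01 to 4.07 and 3.96 to 4.07. Their part in the differences of SOD1 and CAT was not tested.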

How the data were processed

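Per the submitters' processing notes, the authors made the deposited log2 values with RMA. Its version and the genome build are not given in the sources used here. No coordinates of array clusters are therefore printed. Per the labels' protocols, total RNA was extracted with Trizol and biotin-labelled. The table held 70523 rows of 6 arrays, from 2.73 to the ceiling of 19.9, which none of the genes described here reached. Arrays have no read depth, and their number limits the precision. No array duplicated another (smallest mean absolute difference 0.152).

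Of 67528 transcript clusters, 23781 had 1 symbol and 1543 several (not used). Where a gene had more than 1 cluster (479 genes), the one with the highest mean was taken. The RefSeq gene identifiers of the 4 measured genes matched those of the array. PM2.5 and control arrays were compared with limma 3.58.1 in R 4.3.3 (intensity trend, two-sided, Benjamini-Hochberg over all genes, threshold 0.05), without a filter or block. The sets were compared with group in the model. The sets are the arrays split at the widest gap in spike-in signal. The fits were tested on simulated data. For treatment these carried no difference between the array sets. They therefore do not show how the fit without a block performs on these arrays. The 5 genes, the 10 lists and the tests were chosen with earlier results of these data known. The rule for naming took the members, 8 direct partners, the 2 genes above background with the lowest p in each list and the 3 nearest genes per member above background. Alternatives tried were the replicate number or the array set as a block, array weights, centring, a further quantile normalization, no intensity trend, genes above background, the mean of a gene's clusters and leaving out each array.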

Additional observations from a re-analysis of the deposited data

How the results depend on the processing

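Treatment differences were tested under 14 alternatives and set differences under 11. The count of genes changed by PM2.5 was 0 in limma under all of these 14, with 35 (genes above background only) to 6517 (array weights) at an unadjusted p under 0.05, and none of the 4 measured genes passed in any of them. The log2 change ranged from -0.03 to 0.82 for SOD1, from -0.03 to 0.81 for CAT, from -0.0077 to 0.17 for CCS and from 0.0095 to 0.11 for SOD3. It turned negative for SOD1 with the array set as a block, for CAT with that block and without PM2.5 replicate 2, and for CCS with array weights. Control replicate 3 had the lowest array weight (0.226) and control replicate 1 the highest (6.03). SOD3, within background, was not tested among genes above background. Of 401 values of 29 other named genes 0 passed and 41 had the other sign.

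The replicate number as a block gave the same log2 changes (0.35 for SOD1, 0.36 for CAT, 0.11 for CCS and 0.05 for SOD3) and 0 changed genes. In the labels, same-numbered arrays share only a number. Both arrays of replicate 1 lay in the high spike-in set and both of replicate 3 in the low set, while replicate 2 was split. The deviations of same-numbered arrays from the group means correlated at 0.779, -0.654 and 0.773 for replicates 1, 2 and 3.

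The 1810 genes that differed between the sets fell to between 1 and 827 when 1 array was left out: 4 without PM2.5 replicate 1, 26 without PM2.5 replicate 2, 827 without PM2.5 replicate 3, 74, 496 and 1 without control replicates 1, 2 and 3. These fits have fewer samples. The set difference of CAT was 1.00 after a further quantile normalization (limma adjusted p = 0.0574) and 1.18 without an intensity trend (0.0544), so its call was lost in both, and the cause was not tested. The call of SOD1 held in all 5 alternatives on all arrays (adjusted p = 0.0205 to 0.0446 in limma). Left-out arrays gave 0.88 to 1.38 for SOD1 and 1.01 to 1.37 for CAT. The set difference of CCS was 0.0078 after centring, and that of SOD3 was 0.03 after centring and 0.01 after quantile normalization, none of them called.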

Other observations

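The 2 transcript clusters annotated with both SOD2 and SOD2-OT1 entered no comparison, because their signal cannot be assigned to either gene. Cluster TC06004141.hg.1 was above 5.66 on all 6 arrays. It read 6.00, 6.57 and 6.26 on PM2.5 replicates 1, 2 and 3, and 6.16, 5.85 and 6.71 on control replicates 1, 2 and 3. Its highest values were again those of the low spike-in arrays, and its means were 6.28 ± 0.287 and 6.24 ± 0.436 (SD, n = 3 each), with the groups overlapping. Cluster TC06004142.hg.1 lay within background on all 6 arrays, at 4.84 ± 0.0626 after PM2.5 and 4.99 ± 0.0826 in controls (SD, n = 3 each). Its PM2.5 arrays, at 4.91, 4.85 and 4.78, all lay below its control arrays, at 4.91, 5.07 and 4.99, the nearest pair being equal to the digits printed. This was not tested.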
